A study of Mus musculus with 6 samples.

Results

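AMPA receptor subunits and their transmembrane regulatory proteins, the TARPs, were followed through a microarray comparison of sorted cerebellar astroglial precursors of the neonatal mouse. The 10 genes Gria1, Gria2, Gria3, Gria4, Cacng2, Cacng3, Cacng4, Cacng5, Cacng7 and Cacng8 were found on the array by the gene name of each probe, and all 15 of their probes were used, out of 55681 probes and 24082 gene symbols. A+/G+ cells carry both ACSA-2, an epitope of the protein encoded by Atp1b2, and the glutamate transporter GLAST, encoded by Slc1a3. A-/G+ cells carry GLAST alone. Both fractions were enriched and not pure, and the study counted rare cells with ACSA-2 but without GLAST as A+/G+. Each fraction was represented by 3 biological replicates of 50000 cells, with 1 array per replicate. All samples came from untreated wild-type cerebella without a transgene, which the labels give as CD1 mice at postnatal days 1 to 3, whereas the methods of the study name newborns of day 0 or 1 and wild-type mice with a C57BL/6 background. Cerebella of either sex were pooled. The fractions were not isolated in the same way, because A+/G+ cells were enriched with anti-ACSA-2 beads alone. A-/G+ cells were taken with anti-GLAST beads after cells with L1CAM, ACSA-2, CD45, PSA-NCAM or Ter119 had been removed. In such bulk samples, fewer cells of a type and less RNA per cell cannot be told apart.

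AMPA receptors are glutamate-gated cation channels that assemble as tetramers of the subunits encoded by Gria1 to Gria4. The edited subunit of Gria2 makes the channel nearly impermeable to calcium. TARPs are auxiliary membrane proteins that bring the receptor to the surface and shape its gating, with Cacng2, Cacng3, Cacng4 and Cacng8 as type I and Cacng5 and Cacng7 as type II members. Bergmann glia, the radial astroglia around Purkinje cells, are known for calcium-permeable AMPA receptors built from the products of Gria1 and Gria4.

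The probes on which the comparison turns are shown because each stands for 1 stretch of its transcript, and the members with more than 1 probe differ by stretch. Sequences are from the array's design, 5′ to 3′, with positions on mm9. Probes have 60 bases and are printed whole or by their first 30 bases.
Gria1 (chr11:57143613-57143672, plus strand, first 30 bases): catttgatcagacactaaatatttggggta
Gria3 (chrX:39007367-39007426, plus strand, whole): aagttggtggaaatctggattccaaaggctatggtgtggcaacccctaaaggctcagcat
Gria4, brightest probe (chr9:4417896-4417955, minus strand, first 30 bases): cagcacccagcacagtgcctggcatattgt
Gria4, other probe (chr9:4502385-4502444, minus strand, whole): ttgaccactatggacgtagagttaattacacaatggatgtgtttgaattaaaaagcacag
Cacng4 (chr11:107596096-107596155, minus strand, whole): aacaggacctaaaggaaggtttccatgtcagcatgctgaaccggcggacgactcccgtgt
Cacng5 (chr11:107736263-107736322, minus strand, first 30 bases): aacttttgtcaatgttattaacacctgtga
Cacng2, brightest probe (chr15:77825290-77825349, minus strand, first 30 bases): ccacaggctatgcggggggaaaatataacc
Cacng2, other probe (chr15:77825180-77825239, minus strand, first 30 bases): catgtaccattattttaacatttAATAAAa
The capitals in the last sequence mark AATAAA, the polyadenylation signal motif, which that probe holds 2 times on its sense strand. Gria1's probe, the brightest Gria4 probe and this second Cacng2 probe have a stop codon in every sense reading frame, so that these 3 of 15 probes cannot lie wholly within coding sequence, compared with 20.7% of all probes. The second Cacng2 probe has a GC content of 20%, which 0.275% of all probes do not exceed, against a median of 43.3%. A run of 15 bases is shared with a probe of another gene by 5 of the 15 member probes and by 30.6% of all probes. The probes of Gria1 and Cacng4 and the brightest ones of Gria3 and Gria4 each share such a run with 1 probe of another gene. The brightest Cacng7 probe does so with 3, and the other Gria4 probe with none. The letters of the brightest Gria4 probe resemble the end of the interspersed repeat family MIR, no repeat annotation was used here, and binding of other transcripts to it was not tested beyond these shared runs.

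Signals are given as quantile-normalized log2 intensities, and differences are those of the means, A-/G+ minus A+/G+, from limma with Benjamini-Hochberg adjustment over all 55681 probes. A gene stands for its probe with the highest mean signal. Following the study's limits, a call required an adjusted p of 0.05 or less together with medians 4-fold apart or more, and the calls by adjusted p alone are given beside these. A probe cleared background on an array where the scanner software marked its spot as well above background. Levels of different probes are not compared, since probes differ in brightness.

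Of the 10 genes, 5 were higher in A-/G+ by adjusted p, namely Gria1, Gria3, Gria4, Cacng4 and Cacng5. Among all gene symbols the same limit called 5.12% higher in A-/G+, and 9.99% (8.94% for A+/G+) of the 11334 symbols whose brightest probe was well above background on all arrays. In A+/G+, 0 members were higher by adjusted p from limma, against 7.48% of all symbols, and 0 had an unadjusted p within 0.05 in that direction. The test of the study's methods, run on these values, also called 0. Past both limits were Gria1 and Cacng5, 2 of 10 genes, against 0.440% of all symbols in that direction, and 2.62% of all symbols in the other. The study had already named Gria1 for A-/G+ from these arrays, so this count is not independent of that result. By probe, 7 of 15 were higher in A-/G+ by adjusted p and 3 past both limits, against 4.64% and 0.399% of all probes. In the other direction 0 of 15 passed either rule, against 4.65% and 1.53%. The median difference over the 10 genes was 1.13, compared with 0.03 over all symbols. In 5 of the 10 genes every A-/G+ array lay above every A+/G+ array, which held for 23.3% of all symbols, and the reverse order, seen in 0 members, for 19.1%. With each array left out in turn, between 2 and 5 genes stayed higher in A-/G+ by adjusted p. The count fell to 2 without replicate 1 or 2 of A+/G+ and to 3 without replicate 3 of A+/G+, and was 5 without any one A-/G+ array.

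**Figure D1:**
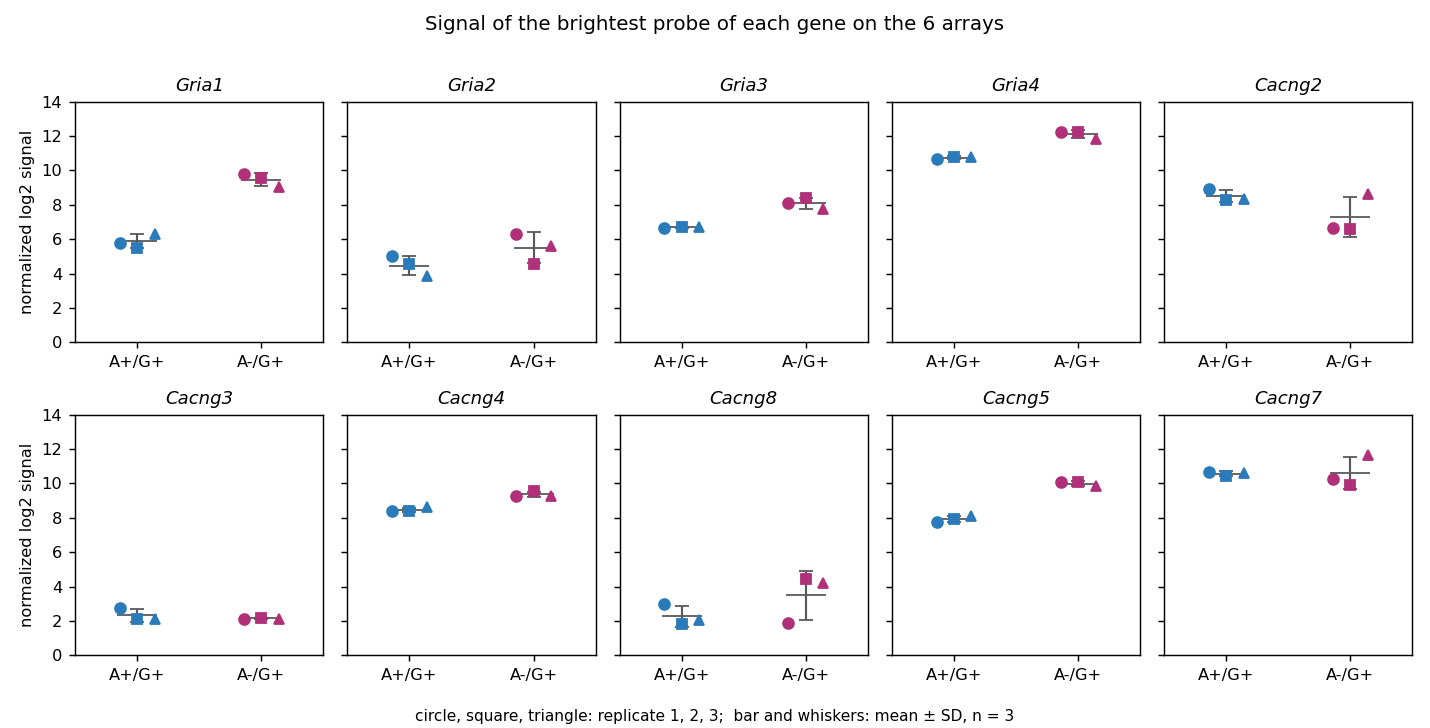
Normalized log2 signal (vertical axis) of the brightest probe of each member on the 6 arrays, by fraction, with the mean and SD of 3 replicates. The A-/G+ points of Gria1, Gria3, Gria4, Cacng4 and Cacng5 lie above all A+/G+ points, whereas replicate 3 of A-/G+ stands above the other A-/G+ arrays for Cacng2 and Cacng7.

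The subunit with the largest change among the members was Gria1. Its log2 signal in A+/G+ was 5.80, 5.51 and 6.32 (replicates 1, 2 and 3, the order kept below), and in A-/G+ it was 9.78, 9.56 and 9.03. The fractions did not overlap, with a gap of 2.71 between the highest A+/G+ and the lowest A-/G+ array. The means were 5.88 ± 0.41 and 9.46 ± 0.39 (SD, n = 3), a difference of 3.58 (95% confidence interval 2.82 to 4.34, adjusted p = 0.00707 from limma). The medians were 13.5-fold apart. The call past both limits held without each of the 6 arrays, with differences between 3.37 and 3.79. The study had already listed Gria1 among its top A-/G+ genes from these arrays. It also reported staining of the protein in A-/G+ Bergmann glia progenitors. The values given here are therefore not independent of that result.

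Gria4 was measured by 2 probes that lie apart in the gene. The brightest, the one with repeat-like letters, gave 10.64, 10.80 and 10.80 in A+/G+ and 12.24, 12.26 and 11.82 in A-/G+, a difference of 1.36 (95% confidence interval 0.99 to 1.73, adjusted p = 0.0114 from limma). The other probe gave 7.76, 7.76 and 7.88 in A+/G+ and 9.95, 9.83 and 8.93 in A-/G+. Both were higher in every A-/G+ array than in any A+/G+ array. For the other probe the difference was 1.77 (adjusted p = 0.0311 from limma) and the medians were 4.18-fold apart, past both limits, whereas the medians of the brightest were 2.71-fold apart. The adjusted p of the brightest probe was 0.053 to 0.0576 without any one A+/G+ array, and that of the other probe lay over the limit in 5 of the 6 fits with 1 array left out, the exception being replicate 3 of A-/G+.

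Gria3, whose product forms calcium-permeable channels where the Gria2 subunit is absent, was likewise higher in A-/G+ by both of its probes. The brightest gave 6.66, 6.70 and 6.70 in A+/G+ and 8.09, 8.41 and 7.77 in A-/G+. The second probe, nearer to the start of the gene, gave 4.96, 4.77 and 4.91 in A+/G+ and 6.24, 6.11 and 6.03 in A-/G+. No A+/G+ array reached an A-/G+ array on either. The differences were 1.40 (95% confidence interval 0.96 to 1.85, adjusted p = 0.0159) and 1.24 (1.02 to 1.47, adjusted p = 0.00527, limma). Medians were 2.62-fold and 2.29-fold apart, under the 4-fold limit. The second probe stayed within the limit on adjusted p in all 6 fits with 1 array left out, while the brightest exceeded it (0.0688 to 0.0749) without any one A+/G+ array.

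Gria2, the subunit that sets calcium permeability, was dim in both fractions and its probes pointed in opposite directions. The brightest probe, designed on transcript variant 3, gave 5.0, 4.53 and 3.87 in A+/G+ and 6.32, 4.55 and 5.62 in A-/G+. The fractions overlapped, and the difference of 1.03 had a 95% confidence interval from -0.39 to 2.45 (adjusted p = 0.365 from limma). The other probe gave 5.13, 4.30 and 4.39 in A+/G+ and 1.84, 4.74 and 4.65 in A-/G+, a difference of -0.86 with an interval from -3.16 to 1.43 (adjusted p = 0.595, limma). These intervals leave room for a change in either direction. In A+/G+ both cleared background on 3 of 3 arrays, in A-/G+ on 2 and on 1. The dimmest probe that passed as well above background had a log2 signal between 3.52 and 3.61 on the A+/G+ arrays, whereas it was 5.72, 4.95 and 4.03 for A-/G+, so that a signal of 4 to 5 could pass in A+/G+ and miss in A-/G+.

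**Figure D2:**
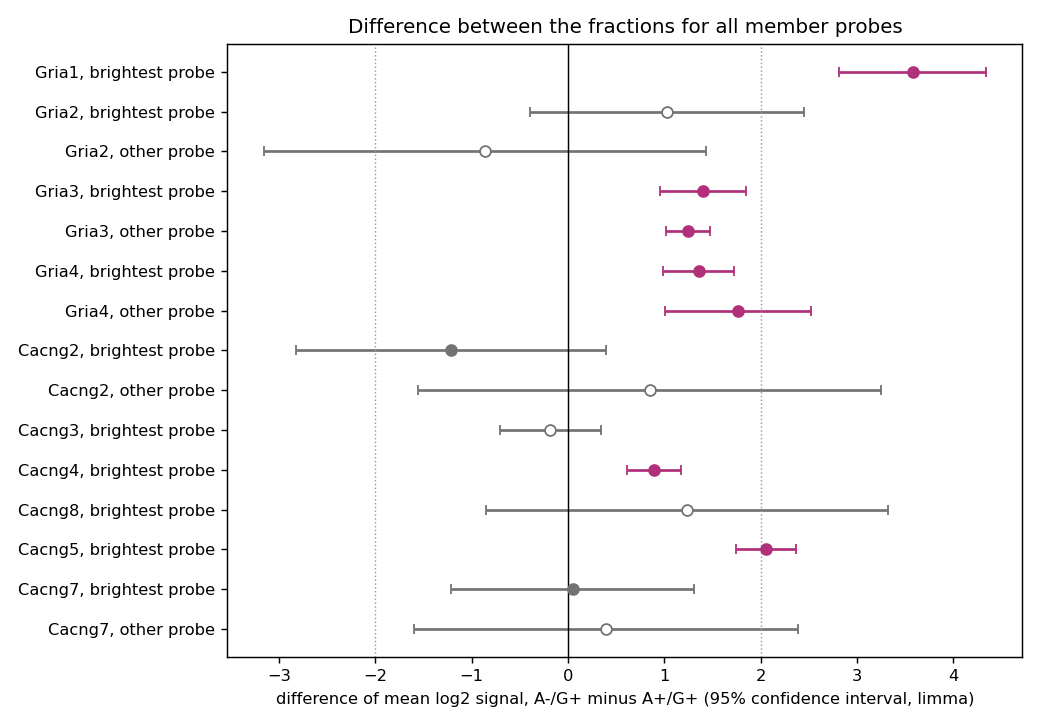
Difference of the mean log2 signal, A-/G+ minus A+/G+ (horizontal axis), for the 15 member probes with the 95% confidence interval from limma, 3 arrays per fraction. Magenta marks the 7 probes past the limit on adjusted p, open circles mark probes not well above background on all 6 arrays, and dotted lines mark a 4-fold difference in either direction.

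Among the type I TARPs, Cacng4 alone passed the limit on adjusted p. It gave 8.40, 8.40 and 8.61 in A+/G+ and 9.27, 9.53 and 9.28 in A-/G+, without overlap. The difference was 0.89 (95% confidence interval 0.61 to 1.18, adjusted p = 0.0156 from limma) and the medians were 1.84-fold apart. Its adjusted p was 0.0669 without replicate 1 and 0.074 without replicate 2 of A+/G+.

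Cacng2 encodes stargazin, the first TARP to be described, whose loss causes ataxia in the stargazer mouse and which is prominent in granule neurons. Its brightest probe gave 8.89, 8.30 and 8.32 in A+/G+ and 6.65, 6.60 and 8.61 in A-/G+. Replicate 3 of A-/G+ fell within the range of A+/G+, while the other 2 arrays of A-/G+ were lower than all A+/G+ arrays. Over all arrays the difference was -1.22 (95% confidence interval -2.83 to 0.39, adjusted p = 0.344 from limma). Without replicate 3 of A-/G+ it was -1.89, with an adjusted p of 0.018 from limma and medians 3.25-fold apart. The second probe, the one with low GC content, did not clear background on any of the 6 arrays.

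Cacng8 and Cacng3, which are abundant in hippocampus and cortex, gave little signal. Cacng8 gave 2.97, 1.80 and 2.04 in A+/G+ and 1.86, 4.42 and 4.22 in A-/G+, and was well above background on 1 array, of A-/G+. The difference of 1.23 had an interval from -0.85 to 3.32 (adjusted p = 0.462, limma). Cacng3 lay between 2.11 and 2.77 on all arrays, none of them well above background. For these dim probes the scaling mattered. When a 75th percentile shift replaced quantile normalization, the difference was 2.46 for Cacng8 (adjusted p = 0.0457, limma) and 1.30 for Cacng3, while the median of all probes moved from 0.04 to 1.02.

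Of the type II TARPs, Cacng5 passed both limits and Cacng7 neither. Cacng5, described in Bergmann glia like Cacng4, gave 7.75, 7.96 and 8.10 in A+/G+ and 10.08, 10.06 and 9.85 in A-/G+. All A-/G+ arrays were higher, with a gap of 1.75. The means were 7.94 ± 0.17 and 9.99 ± 0.13 (SD, n = 3), a difference of 2.06 (95% confidence interval 1.75 to 2.37, adjusted p = 0.00387 from limma). Medians were 4.30-fold apart. The adjusted p stayed within the limit without each of the 6 arrays, and of these fits the one without replicate 2 of A-/G+ missed the 4-fold limit.

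Cacng7 is a cerebellar TARP that is expressed broadly. Its brightest probe gave 10.67, 10.41 and 10.62 in A+/G+ and 10.28, 9.90 and 11.66 in A-/G+. As with Cacng2, replicate 3 of A-/G+ was the highest of its fraction, here above all other arrays. The difference was 0.05, with a 95% confidence interval from -1.21 to 1.31 (adjusted p = 0.963 from limma). Leaving out 1 array moved the difference between -0.47 and 0.41. Its second probe cleared background in every A+/G+ sample but in 1 of A-/G+, and differed by 0.39 (adjusted p = 0.773, limma). It gave 4.22, 4.22 and 3.94 in A+/G+, under the dimmest signals that passed on A-/G+ replicates 1 and 2, 5.72 and 4.95. The count of arrays above background therefore does not show a lower signal in A-/G+. Cacng4 and Cacng5 lie side by side on chromosome 11, with 140 kb between their probes on mm9, and Cacng7 and Cacng8 on chromosome 7 with 47.5 kb between theirs.

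For single probes, the exact permutation test over the 6 arrays gave p = 0.1 (two-sided) wherever the fractions did not overlap, the smallest value that 3 arrays against 3 can give.

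Each fraction was hybridized on a slide of its own, and effects of slide and of fraction cannot be told apart. The 75th percentile of the intensity was between 332 and 334 in A+/G+ and between 56.6 and 251 in A-/G+, and between 18333 and 24726 probes were well above background on the A-/G+ arrays against 26476 to 26653 on the A+/G+ arrays. Atp1b2 favored A+/G+ (difference -2.16, adjusted p = 0.00725, limma), while Slc1a3 was at 14.59 in A-/G+ and 13.39 in A+/G+ (adjusted p = 0.0733, limma). No members were saturated on any array.

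Marker lists of cell types moved with the same contrast. The Bergmann and radial glia list, with 6 of 8 genes higher in A-/G+ by adjusted p, had a mean log2 signal of 9.88 to 10.22 over the A+/G+ arrays and 11.89 to 12.52 over the A-/G+ arrays, in the direction of the 5 members that passed. Among its genes were Gdf10 (difference 3.00) and Wif1 (3.08). The study had already named Gdf10, Wif1, Mybpc1 and Npy for A-/G+ from these arrays. They are the 4 list genes past both limits, so the list count is not independent of that result. By adjusted p, 5.12% of all symbols passed in this direction, and 9.99% of those well above background on all arrays. Astrocyte markers went the other way for 5 of 8 genes, among them Slc6a11, which the study had named for A+/G+. Aldh1l1 was instead higher in A-/G+. Purkinje cells, which carry AMPA receptors and TARPs themselves, were represented by 7 genes, of which 5 were higher in A+/G+. Their list mean was 6.79 to 7.98 in A+/G+ and 3.82 to 4.31 in A-/G+, and 5 of the 7 genes, among them Calb1 and Car8, did not clear background in any A-/G+ sample. Of these 5, Ppp1r17 cleared background in no A+/G+ sample either, and the dimmest signal that passed was higher on the A-/G+ arrays. Oligodendrocyte precursors, another cell with AMPA receptors, had 3 of 6 genes higher in A+/G+, with a list mean of 10.17 to 10.55 in A+/G+ and 7.80 to 8.96 in A-/G+. Within the latter list, Sox10 and Gpr17 overlapped between the fractions and were highest on A-/G+ replicate 3, at 8.43 and 11.16. Of the remaining lists, multiciliated cells had 3 of 4 and endothelial cells 1 of 4 genes higher in A+/G+. GABAergic interneuron precursors had 1 of 7 in each direction, Ptf1a in A-/G+ and Gad1 in A+/G+. Ptf1a had also been named for A-/G+ by the study. Microglia had 0 of 5 by adjusted p from limma and 1 by unadjusted p. The part of these cells in the members' signals was not tested.

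On the array of A-/G+ replicate 3, the means of several marker lists stood above those of the other A-/G+ arrays. Before normalization this array was also the brightest of its fraction, with a 75th percentile of 251 against 56.6 and 113 on replicates 1 and 2. It had 24726 probes well above background, against 18333 and 21409. The mean of the granule neuron list was 8.90 on it, compared with 7.57 and 7.43 on replicates 1 and 2 and with 8.12 to 8.40 in A+/G+. For the pan-neuronal list, the means were 9.54 on this array, 8.40 and 8.28 on replicates 1 and 2, and 9.72 to 10.31 in A+/G+. The endothelial list was at 8.90 against 7.42 and 7.39, the oligodendrocyte precursor list at 8.96 against 7.80 and 7.81, and the microglia list at 5.74 against 4.27 and 5.19. Within the neuronal lists, Pax6, Syt1 and Map2 had their lowest A-/G+ value on this array, at 10.92, 10.98 and 10.69, and Snap25 was highest on replicate 1. Of the granule list, Pax6 alone passed, higher in A-/G+, and of the 8 pan-neuronal genes 0 passed the limit on adjusted p from limma and 4 had an unadjusted p within 0.05. Of these 4, Stmn2, L1cam and Nefl (3 genes) were higher in A+/G+ and Map2 (1 gene) in A-/G+. Cells with L1CAM had been removed from A-/G+ alone. All 6 granule genes other than Cntn2 were well above background on every array. Cacng2 and Cacng7 were highest of their fraction on the same array. Whether signal of any of these cell types, or the brightness of the array, contributed was not tested. Gria1, Gria3, Gria4 and Cacng5 had their lowest A-/G+ value on it, at 9.03, 7.77, 11.82 and 9.85, as did the Bergmann and radial glia list, at 11.89 against 12.26 and 12.52.

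**Figure D3:**
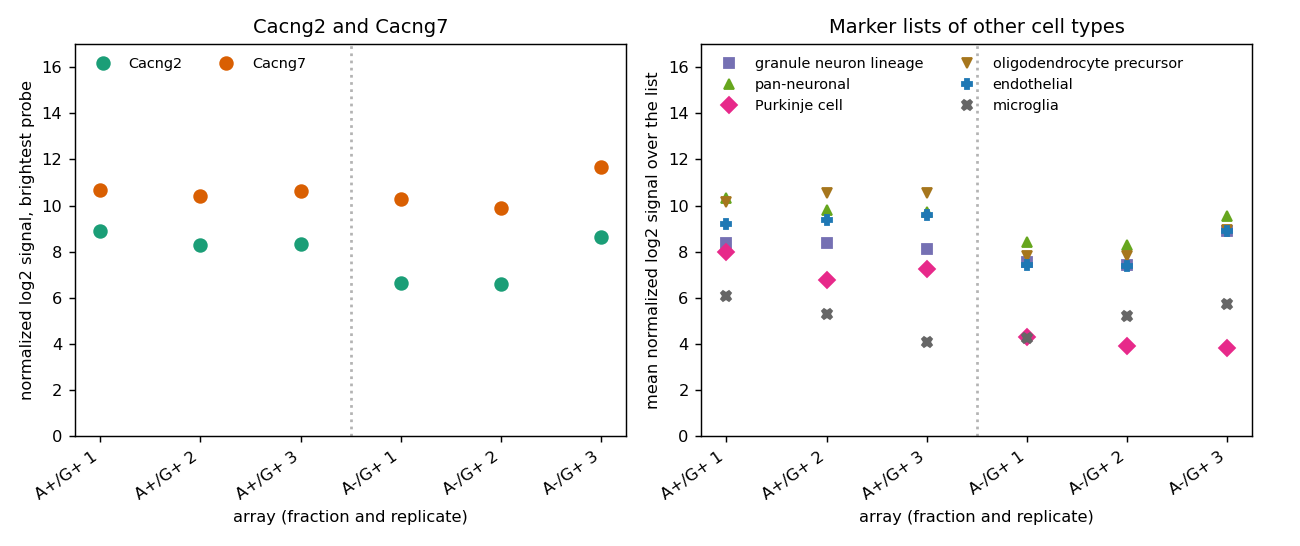
Normalized log2 signal of the brightest Cacng2 and Cacng7 probes (left) and mean log2 signal of marker lists of other cell types (right) on each of the 6 arrays. On A-/G+ replicate 3, Cacng2 is at 8.61 and Cacng7 at 11.66, and the granule neuron (8.90), pan-neuronal (9.54), oligodendrocyte precursor (8.96), endothelial (8.90) and microglia (5.74) lists lie above the other A-/G+ arrays, whereas the Purkinje cell list, at 3.82, does not.

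Genes whose profile over the 6 arrays was most like that of Gria1 were sought among 14673 probes with a gene symbol that were well above background on all arrays, by the root-mean-square distance after each profile was centered on its mean. Ranks count each gene symbol once, by its nearest probe, and so run over fewer entries than these probes. The nearest were B3galt5, Mybpc1, Slco4a1, Clrn1 and Adamts19, at distances of 0.15 to 0.24. Of these, Mybpc1 is also in the Bergmann and radial glia list. The study had listed all 5, like Gria1, among its top A-/G+ genes from these arrays. The distance favors genes whose difference is of similar size, here 3.38 to 3.74 beside 3.58 for Gria1. The neighbors are therefore not independent of the study's list. Cacng5 ranked 76, Gria4 125 (by its other probe), Gria3 310 and Cacng4 1018. For Gria4, the nearest were Kcnk10, Rai14, En2, Pcsk6 and Sox1, at 0.02 to 0.06. Gria3 ranked 16, Cacng4 463, Cacng5 1073 and Gria1 10375, with a distance of 1.14. The Pearson correlation with Gria4 was nevertheless 0.986 for Gria1 and 0.990 for Cacng5. The low rank of Gria1 goes with its larger difference, 3.58 against 1.36 for Gria4, and does not mean an unlike pattern over the arrays. The profiles share the 6 arrays and their scaling, and these distances are a description.

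Genes of AMPA receptor assembly, trafficking and editing were examined beside the members. Of 38 listed partner genes 37 were found on the array. By adjusted p, 5 were higher in A-/G+, against 5.12% of all symbols, while 7 were so in A+/G+, against 7.48%. The median difference was -0.03. Past both limits were 1 gene in each direction.

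Of the other auxiliary proteins, which bind the receptor beside TARPs, 0 of 8 passed the limit on adjusted p from limma, and 3 had an unadjusted p within 0.05, of which Frrs1l and Shisa9 lay higher in A-/G+ and Shisa7 in A+/G+. These were named after their values were seen. The cornichon Cnih2, which helps receptors leave the endoplasmic reticulum, was at 11.27 ± 0.20 in A+/G+ and 11.08 ± 0.14 in A-/G+ (SD, n = 3). Gsg1l differed by 0.09 and Prrt1 by -0.03, with adjusted p of 0.808 and 0.9 (limma).

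In the assembly and export group, Cpt1c, a partner of the receptor in the endoplasmic reticulum, was higher in A-/G+, with a difference of 0.54 (adjusted p = 0.0192, limma). The hydrolases Abhd12 and Abhd6, of which Abhd6 is known to restrain receptor delivery, were higher in A+/G+, with differences of -0.97 (adjusted p = 0.00702) and -0.92 (adjusted p = 0.0162, limma). Porcn and Sacm1l did not pass (differences 0.05 and -0.31, adjusted p of 0.852 and 0.0623, limma). In this group Abhd12 and Abhd6, and among the scaffolds Dlg1 and Grip1, were named after their values were seen.

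Among the 13 scaffold and trafficking genes, Dlg1, which encodes SAP97, a partner of the Gria1 subunit, exceeded its A+/G+ level by 0.47 (adjusted p = 0.0494), as did Gripap1 by 0.36 (adjusted p = 0.0226, limma). Grip1, a scaffold of the subunits of Gria2 and Gria3, was the 1 gene here higher in A+/G+ (difference -0.59, adjusted p = 0.0166, limma). Dlg3 and Arc, the activity-regulated gene of receptor uptake, differed by -0.15 and -0.02 (adjusted p of 0.586 and 0.969, limma).

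The extracellular clustering proteins had 3 of 6 genes higher in A+/G+ by adjusted p from limma. In the other direction the count was 0 by adjusted and 0 by unadjusted p. Olfm3, the 1 partner past both limits in A+/G+, gave 4.37, 4.95 and 4.67 in A+/G+ and 1.97, 1.93 and 1.90 in A-/G+, where no array was well above background. The dimmest signal that passed on the A-/G+ arrays was 5.72, 4.95 and 4.03. A signal at the A+/G+ level could thus have missed background on A-/G+ replicates 1 and 2, and no fold is given. Olfm1 differed by -1.43 (adjusted p = 0.0138) and Nptxr, the pentraxin receptor, by -1.54 (adjusted p = 0.0398, limma). The Nptxr probe is listed under Npcd, a read-through transcript of the same locus, and matches both. Olfm2 cleared background in every A+/G+ sample and in 1 of A-/G+ (difference -1.23, adjusted p = 0.482, limma), a count that the higher background limits of A-/G+ also affect.

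Of the RNA editing enzymes, Adar rose in A-/G+ relative to A+/G+ with a difference of 0.27 (adjusted p = 0.0405, limma). Adarb1, whose product edits the Gria2 transcript at the site that sets calcium permeability, was at 10.20, 9.52 and 9.43 in A+/G+ and 8.79, 8.91 and 9.55 in A-/G+, with overlap (adjusted p = 0.318, limma). Adarb2 gave 2.24, 1.93 and 2.18 in A+/G+, on no array well above background, and 5.20, 4.96 and 4.49 in A-/G+, on 1 array well above it. Its adjusted p was 0.00596 from limma, but no fold is given, since the signal cleared background on 1 of the 6 arrays. Adarb2 was the 1 partner past both limits in A-/G+, a count that was 0 with normexp background correction and with the filter on dim probes. The gamma subunits outside the TARPs, Cacng1 of skeletal muscle and Cacng6, cleared background on 0 of the 6 arrays, although Cacng1 passed the limit on adjusted p (difference -0.73, adjusted p = 0.0279, limma).

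**Figure D4:**
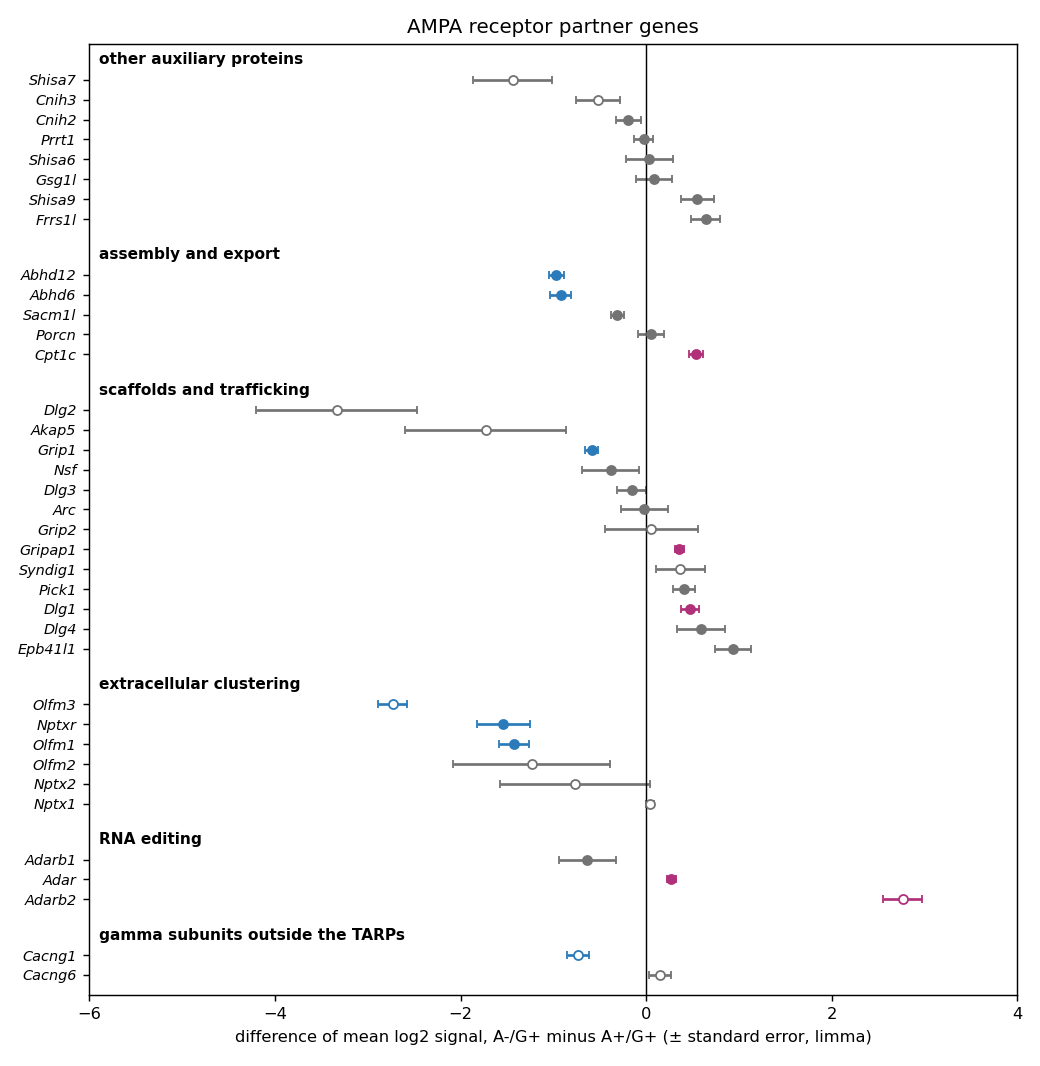
Difference of the mean log2 signal, A-/G+ minus A+/G+ (horizontal axis, ± standard error from limma, 3 arrays per fraction), for the 37 partner genes by role. By adjusted p, magenta marks the 5 genes higher in A-/G+, blue the 7 that favored A+/G+, gray marks the others, and open circles mark probes not well above background on all 6 arrays.

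Start-site windows from RefSeq on GRCm38.p6 were at hand for 7 of the 10 members. Shown are the 250 bases before the start of Gria4 and before the upstream one of 2 starts of Cacng5, both higher in A-/G+, to set their base composition side by side. Capitals mark GGGCGG, the core of GC boxes, and CCAAT, on either strand.
Gria4 (chr9:4796235-4796484, minus strand): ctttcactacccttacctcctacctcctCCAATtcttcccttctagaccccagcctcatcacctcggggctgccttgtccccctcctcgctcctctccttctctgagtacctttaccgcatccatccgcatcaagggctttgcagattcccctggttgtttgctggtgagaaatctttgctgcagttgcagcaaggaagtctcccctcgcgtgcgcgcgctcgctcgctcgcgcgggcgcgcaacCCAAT
Cacng5 (chr11:107915056-107915305, minus strand): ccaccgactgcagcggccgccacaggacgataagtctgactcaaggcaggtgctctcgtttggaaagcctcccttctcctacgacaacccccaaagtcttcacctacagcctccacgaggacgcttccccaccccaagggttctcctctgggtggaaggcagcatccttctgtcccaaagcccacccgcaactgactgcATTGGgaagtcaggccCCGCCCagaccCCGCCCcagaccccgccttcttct
The Gria4 window has a GC content of 58.8% with 16 CpG, no GGGCGG and 2 CCAAT. The printed window of Cacng5 has 62.0% with 12 CpG, 2 GGGCGG and 1 CCAAT. That of its other start (chr11:107911363-107911612), not printed, has 56.8% with 2 CpG, 0 GGGCGG and 0 CCAAT. Over all 32851 windows the median GC content was 52.4%, with GGGCGG in 32.7% and CCAAT in 33.8%. No window of Gria4 or Cacng5 described here holds TATAAA, which is found in 12.4% of all windows. These matches are a description of the letters and the search covered both strands.

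**Figure D5:**
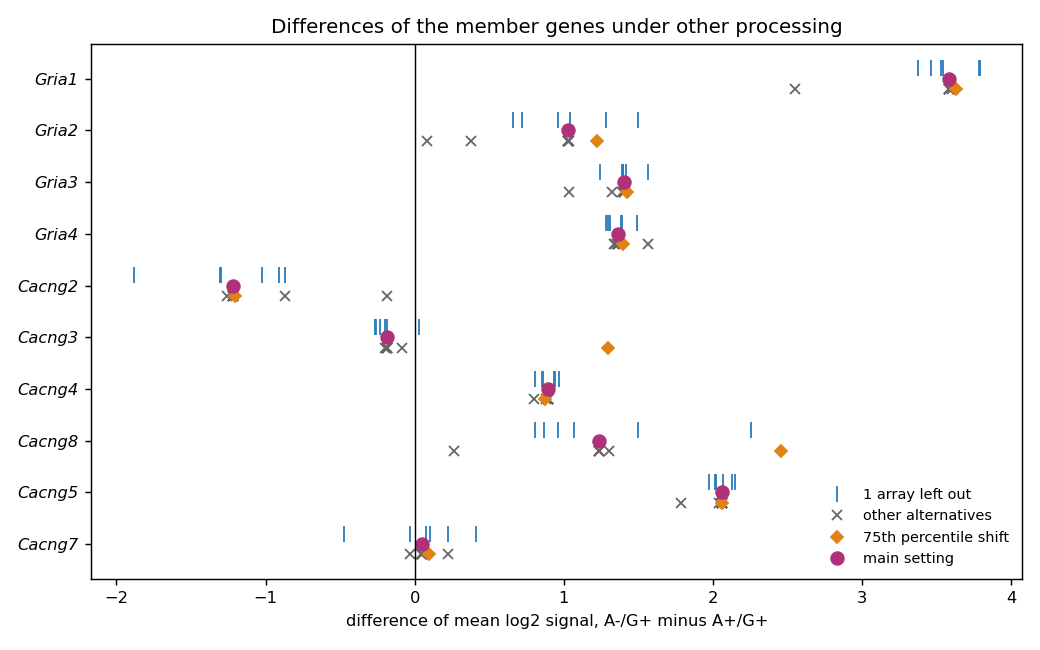
Difference of the mean log2 signal, A-/G+ minus A+/G+ (horizontal axis), of the brightest probe of each member under the main setting, with 1 array left out, with a shift by the 75th percentile and under the other alternatives. Gria1, Gria3, Gria4, Cacng4 and Cacng5 lie to the right of 0 throughout, as do Gria2 and Cacng8. Cacng2 lies to the left, and Cacng3 and Cacng7 fall on both sides.

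The 5 members higher in A-/G+ kept that direction in all 15 alternative fits each. Gria1 ranged from 2.55 to 3.79 and Cacng5 from 1.78 to 2.15 over these fits. Each passed the limit on adjusted p in 14 of 15, the exception being the replicate block, where all 5 members missed it. Gria3 and Gria4 passed in 11 of 15 by their brightest probe and Cacng4 in 11 of 15. Cacng2 was lower in A-/G+ in all 15 and passed in 1, without replicate 3 of A-/G+. A kept direction did not set the 5 members apart. The brightest Gria2 probe was also higher in A-/G+ in 15 of 15 fits, and Cacng8 in 14 of 14. They passed the limit on adjusted p in 0 and 1 of their fits.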

How the data were processed

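RNA of 6 samples, 3 per fraction, was measured on Agilent whole mouse genome arrays with 1 color (Cy3) after T7 amplification of polyA RNA. The authors deposited the scanner output, in which Agilent Feature Extraction (version 10.7.3.1 per the file headers) lists background-corrected spot intensity values. They also deposited a table of quantile-normalized log2 values, which served as an alternative. No column held the authors' comparisons.

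Log2 intensities were quantile normalized without control spots and spots marked as outliers, and spots of the same probe were averaged. limma 3.58.1 (R 4.3.3) was fitted over all 55681 probes, without a filter on dim probes or a covariate, since each fraction had a slide of its own. Limits were an adjusted p of 0.05 and 4-fold medians. limma replaced the study's t-test, which was an alternative. Other alternatives were a 75th percentile shift, normexp background correction (offset 50), a filter on dim probes, trend and robust variance, outlier spots kept, the mean of a gene's probes, a 2-fold limit or none, a replicate block, and leaving out each array in turn.

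The members, the lists of partner genes and of markers, and the rules for naming genes were chosen with earlier results of these data known. Named were all members, the partners past both limits, up to 3 others per role with the brightest probes, further partners that the text marks as named after their values were seen, and the 5 nearest profiles of Gria1 and Gria4. Names and mm9 positions of probes come from the array files. The labels call the samples biological replicates. The number of arrays limits the precision. The fit was tested on simulated data.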

Additional observations from a re-analysis of the deposited data

How the results depend on the processing

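Of the members, 5 genes passed the limit on adjusted p higher in A-/G+ and 2 passed both limits. Normexp background correction left 1 gene and 1 probe past both limits, and 0 partner genes in either direction. With a 2-fold limit 4 genes, 6 probes and, higher in A+/G+, 4 partners passed, and without a limit on size 5 genes, 7 probes, and partners, 5 of which were higher in A-/G+ while 7 were lower there. By adjusted p, partners higher in A-/G+ numbered 1 after the 75th percentile shift, 3 in the authors' table and 2 with trend and robust variance, and those higher in A+/G+ numbered 4 after the shift. Past both limits, the filter on dim probes gave 0 partners for A-/G+ but 2 for A+/G+, and the mean of a gene's probes gave 2 higher in A+/G+. The causes were not tested.

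With each array left out in turn, member genes higher in A-/G+ numbered 2 to 5 by adjusted p and 1 to 2 past both limits, and probes 3 to 7 and 1 to 3. Higher in A+/G+ by adjusted p were 0 to 1 genes and 0 to 1 probes, the 1 being Cacng2 without replicate 3 of A-/G+. Partners numbered 1 to 4 in A-/G+ and 3 to 9 in A+/G+ by adjusted p, and 1 to 2 past both limits in A+/G+. The adjusted p of Cacng4 was 0.0501 after the 75th percentile shift, and that of the other Gria4 probe 0.0722 by the methods' t-test. The 75th percentile shift moved the split of all probes past both limits from 222 for A-/G+ against 851 for A+/G+ to 938 against 604.

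The replicate numbers were not treated as a pairing in the main fit. The deviations of same-numbered arrays from their fraction means correlated at 0.20, 0.11 and -0.11. A+/G+ replicate 1 alone correlated best with its own number. With so few arrays these correlations cannot decide whether same-numbered samples belong together, and the labels do not say. With the replicate block, 0 member genes, 0 member probes and 0 partners passed in either direction by either rule, and the adjusted p was 0.0769 for Gria1 and 0.065 for Cacng5. No slide block could be fitted. Signals of log2 4 to 5, as for Gria2, were above background in A+/G+ but not on every A-/G+ array, which limits what can be said of Gria2 and Cacng8, and Cacng3 was not well above background in either fraction.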
